A study of Mus musculus with 3 samples.

Results

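The values below compare the typical neuronal cells of the *Tbr1* layer5 homozygous library with those of the wild-type library, gene by gene and grouped by gene function. The members are the cells that the authors retained for differential expression and called typical neuronal cells, 1778 of wild-type and 3935 of homozygous mice, together 5713 of the 17396 filtered cells of the series. Their unique molecular identifiers (UMIs, each counting 1 captured transcript) were summed per library and scaled to 1000000 UMIs of the library's total (counts per 1000000, CPM). Of the 14933 genes in the table, 4269 had a mean of at least 20 CPM over both libraries, and these hold 94.4% of the UMIs in either library.

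The cells came from the medial prefrontal cortex (mPFC) of mice of the C57Bl6 strain at postnatal day 5 (P5). Each genotype carries *Rbp4-cre*, a transgene active in layer 5 projection neurons, and the Cre-dependent tdTomato reporter (Ai14) by which the cells were sorted. The homozygous mice (Tbr1f/f) have both copies of *Tbr1* floxed, the heterozygous mice (Tbr1f/+), used here only for side by side values, 1 copy, and the wild-type mice neither. There is 1 library per genotype, and how many animals went into each is not given in the sources used here. The deletion is limited to cells in which the Cre was active, so other cells keep the gene.

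*Tbr1* encodes a T-box transcription factor of early-born glutamatergic neurons of the deep cortical layers. It acts on its targets by binding DNA through the T-box domain, which the floxed exons encode, and is known for its part in the laminar and projection identity of layer 6 and layer 5 neurons and as an autism risk gene. At P5 cortical projection neurons grow axons and dendrites and begin to form synapses, which draws on the cytoskeleton, motor proteins, calcium signalling and protein synthesis.

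*Tbr1* itself (chromosome 2, 61802930 to 61814114, GRCm38) had 101 UMIs in the wild-type library (27.5 CPM), 320 in the heterozygous library (30.7 CPM) and 136 in the homozygous library (22.4 CPM). The homozygous over wild-type log2 ratio was −0.30 with a 95% counting interval of −0.68 to 0.09. The kit reads the 3′ end of a transcript, outside the floxed exons, so this level does not check the deletion. Since each genotype has a single library, differences could not be tested, and no value here has a replicate error. Each interval is exact (conditional binomial for a ratio) and covers counting error only.

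The libraries differ in depth and in content beyond the genotype. The typical cells hold 3670646 UMIs in wild-type and 6074494 in homozygous, with medians of 1901 and 1375 UMIs per cell. The shallowest wild-type cell has 1533 UMIs, whereas 2343 of the 3935 homozygous cells have fewer than 1500. Across the 4269 genes the typical cells resembled the empty droplets of their own library (barcodes of at least 100 and under 500 UMIs outside the filtered cells), with Pearson's r of log2 levels of 0.985 in wild-type and 0.987 in homozygous; the points share a library. The excitatory markers *Neurod6* and *Nrgn* were 1.70 and 1.93 times their level in empty droplets in wild-type and 1.56 and 1.75 times in homozygous. The glial genes *Fabp7* and *Apoe* were at 0.993 and 1.01 times that level in wild-type and 0.965 and 0.908 times in homozygous. *Aldoc* and *Slc1a3*, also glial, were at 1.06 and 1.34 times in wild-type and 0.933 and 1.21 times in homozygous. Meningeal markers summed to 314 CPM in the wild-type and 46.6 CPM in the homozygous typical cells. *Ptgds* alone made up 292 and 38.4 CPM of these sums. Blood genes summed to 345 and 85.8 CPM, and endothelial genes to 115 and 56.5 CPM. Astrocyte and radial glia genes summed to 10842 and 11020 CPM. Among all these lists 1 marker, the meningeal gene *Lum* in wild-type, was at 0, against 1.15 CPM in homozygous. The libraries share 10 cell barcodes among typical cells, where random draw gives 9.49. Cells with a Y-linked UMI made up 2.47% of wild-type and 3.84% of homozygous typical cells, and those with *Xist*, 2.14% and 0.686%. In the heterozygous library 0 of 5357 typical cells had a Y-linked UMI, and 1.12% had *Xist*. The count of 0 allows a share of up to 0.0560% of cells with such a UMI, which is not the share of cells from males. The sex of the animals is not given in the sources used here. The part of these differences in the ratios below was not tested.

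A gene was counted as higher or lower when the ratio was at least 1.3-fold and its counting interval lay on the same side. By this rule 476 of the 4269 genes (11.2%) were higher in homozygous cells and 270 (6.32%) were lower. The median log2 ratio was 0.08 and the standard deviation over genes 0.31. The balance of the calls moved with the denominator. With a total taken only over genes that are neither mitochondrial nor ribosomal, 334 genes were higher and 361 lower, so that higher calls made up 48.1% of the calls in place of 63.8%, and the median ratio was 0.02. The balance was also different in the most abundant genes, since 5 of the 171 genes of 1000 CPM or more were higher and 43 lower. Below that, 249 were higher and 138 lower of the 2081 genes between 20 and 50 CPM. The counts were 120 and 43 of 959 between 50 and 100 CPM, and 102 and 46 of 1058 between 100 and 1000 CPM. The top class includes abundant cytosolic ribosomal protein genes, which are counted again below, so these counts overlap. The counts of every gene list below are to be read against these shares of 11.2% higher and 6.32% lower, and a range over settings is the lowest and highest count under 11 other scalings and choices of cells, depth classes included. At the lower edge of the filter, *Elovl5* and *Gas2l1* lay just inside (log2 ratios −0.30 and 0.54) and *Rnf19b* just outside (log2 ratio 0.49). A gene below 20 CPM in 1 library passed this filter only through the other library, where it was higher. Among the called genes named below, *Gabra2*, *Agap2*, *Cox6a2*, *Rab28*, *Efna3* and *Lrrc41* were such genes in wild-type, and *Wnt7b* and *Syt13* in homozygous. Their calls are not independent of the filter.

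**Figure D1:**
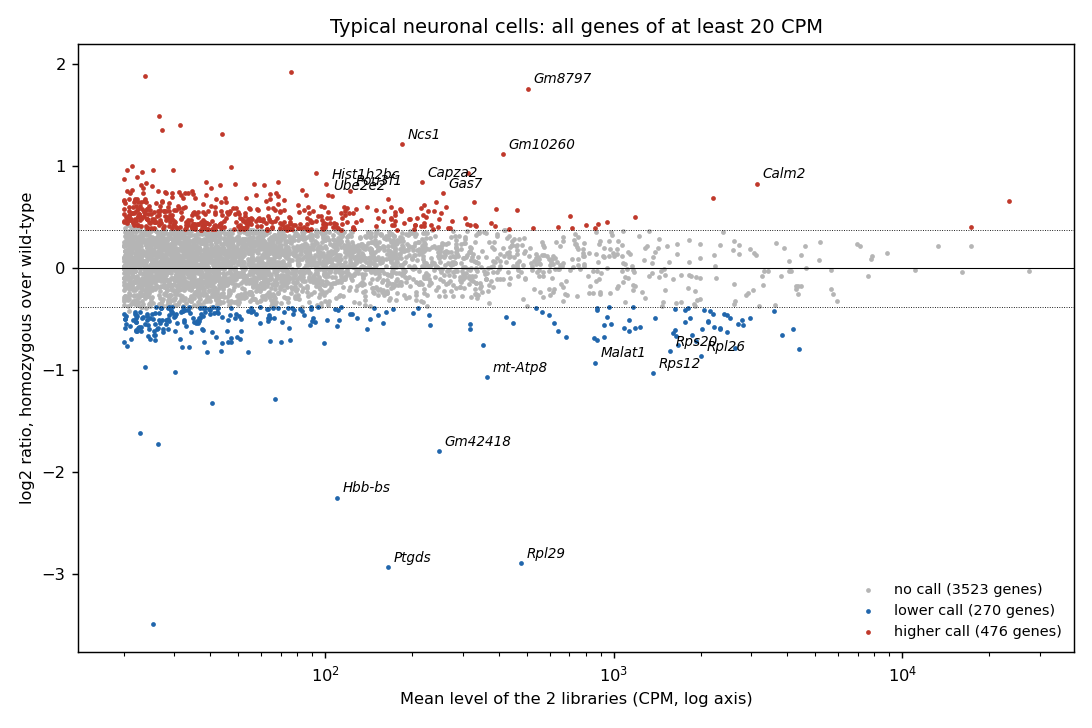
Each point is 1 of the 4269 genes, with its mean CPM over both libraries on a log axis and the log2 ratio of homozygous over wild-type typical neuronal cells on the vertical axis. The 476 higher calls and 270 lower calls lie beyond the dotted lines at 1.3-fold, and most genes above 1000 CPM that were called lie below 0.

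Calcium sensing and ubiquitin genes were among those with the highest ratios at 100 CPM or more. *Ncs1*, which encodes neuronal calcium sensor 1, was at 111, 240 and 258 CPM in wild-type, heterozygous and homozygous cells (homozygous over wild-type log2 1.22, interval 1.06 to 1.38). *Calm2*, a calmodulin gene, was at 2259, 3765 and 4014 CPM in the same order (log2 0.83, 0.79 to 0.87). *Nrgn*, which encodes the calmodulin-binding postsynaptic protein neurogranin, was at 1692, 2062 and 2722 CPM (log2 0.69, 0.64 to 0.73). All 3 genes were lowest in the wild-type library. The authors used *Nrgn*, *Rorb* and *Cnih2* to pick the neuronal clusters, and set atypical cells apart by low *Neurod6* and *Nrgn*, so the levels of these 4 genes are not independent of the choice of cells. The ubiquitin conjugating genes *Ube2e2* and *Ube2v2* had log2 ratios of 0.72 and 0.68, and *Usp22*, which encodes a deubiquitinase of the SAGA coactivator complex, had 0.71.

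Other leading genes had unrelated functions. *Capza2*, which encodes a subunit of the actin capping protein, was at 155 CPM in wild-type and 278 CPM in homozygous cells (log2 0.84). *Gas7*, a neurite outgrowth gene, had a log2 ratio of 0.73 and the histone gene *Hist1h2bc* 0.83. *Npy*, a neuropeptide of cortical interneurons, was at 256, 280 and 401 CPM in wild-type, heterozygous and homozygous cells (log2 0.65), and its log2 ratio was 0.45 in empty droplets and 1.42 in the filtered cells outside the neuronal group. It was 0.33 in cells matched on depth and 0.37 in cells of 1500 to under 2000 UMIs, both short of the 1.3-fold limit. Among other interneuron markers, *Sst* was at 237, 175 and 181 CPM, *Gad2* at 18.5, 11.2 and 10.9 CPM and *Lhx6* at 6.54, 7.01 and 6.91 CPM in the same order. *Gad1*, *Slc32a1*, *Dlx1*, *Dlx2*, *Dlx5* and *Dlx6os1* also had lower point values in homozygous than in wild-type cells. All 10 listed summed to 600 CPM in wild-type and 661 CPM in homozygous cells, of which *Npy* made up 256 and 401 CPM. *Usp22* was at 80.1, 66.0 and 131 CPM in the same order, and *Pou3f1* was at 90.7, 102 and 154 CPM, so the heterozygous value lay below or near the wild-type one. Both mutant ratios share the wild-type library, so heterozygous and homozygous values that lie together are not independent support for each other.

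The lowest ratios at this level belonged to genes of blood and meninges, ribosomal proteins and nuclear RNA. *Ptgds*, a prostaglandin synthase abundant in meninges, was at 292, 25.8 and 38.4 CPM in wild-type, heterozygous and homozygous cells (log2 −2.93, −3.14 to −2.72), and its ratio was −6.95 after the empty-droplet profile was subtracted. *Hbb-bs*, an adult beta globin, was at 181, 24.1 and 38.2 CPM (log2 −2.25), with −3.96 after that subtraction and −1.28 with the atypical cells included. The −6.95 is near a floor. In homozygous 17.1% was subtracted, and the meningeal markers as a sum would reach 0 at 17.8%. In wild-type the 2 shares were 23.4% and 31.0%. *Hbb-bs* was at 451 CPM in wild-type and 193 CPM in homozygous empty droplets, so its subtracted ratio also rests on a remainder. *Rpl29*, a protein of the large ribosomal subunit, was at 843 CPM in wild-type and 857 CPM in heterozygous but 114 CPM in homozygous cells (log2 −2.89, −3.01 to −2.77), and its ratio was −2.76 in empty droplets and −2.50 in the filtered cells outside the neuronal group. *Gm8797* lay on the other side, with 840 UMIs (229 CPM) in wild-type, 313 UMIs in heterozygous and 4718 UMIs (777 CPM) in homozygous cells (log2 1.76). *Gm10260* was at 260, 761 and 566 CPM and *Gm42418*, annotated as a long noncoding RNA, at 383, 162 and 111 CPM. For such predicted genes, for *Rps12-ps3* and for ribosomal protein genes with many near-identical copies, counting can split UMIs between copies, so their single values are uncertain.

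**Figure D2:**
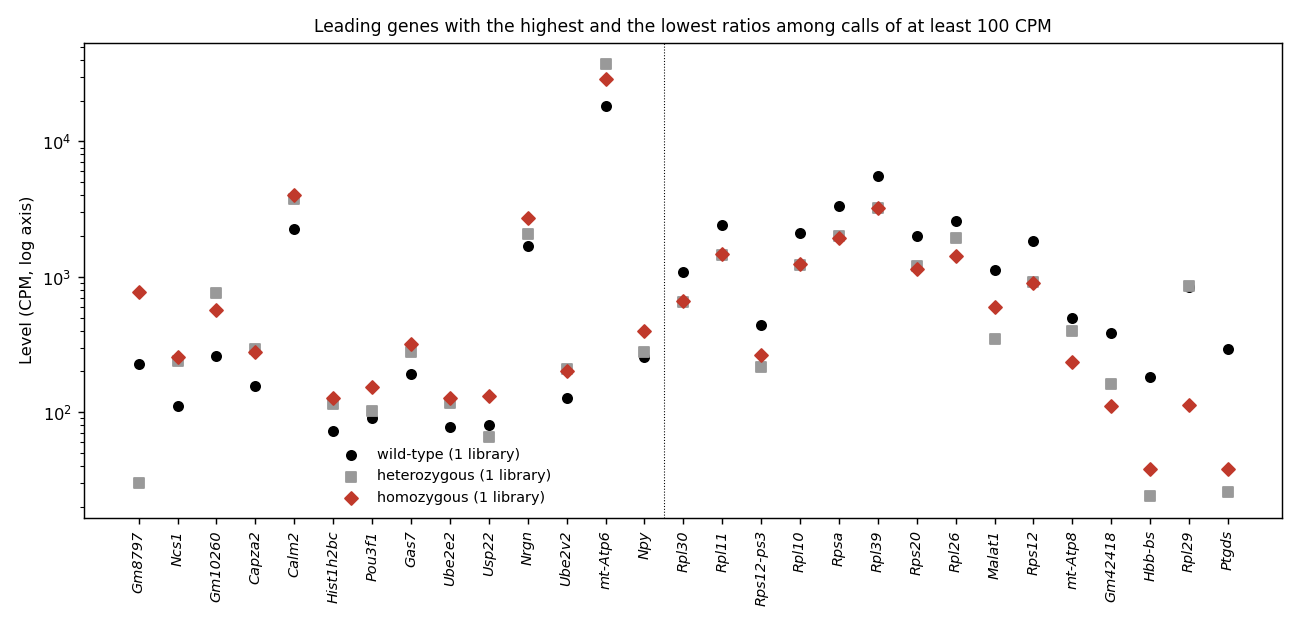
CPM on a log axis in the typical neuronal cells of the 3 libraries for genes from among the 15 with the highest and the 15 with the lowest homozygous over wild-type ratio among calls of at least 100 CPM, in order of the ratio, with 1 point per library. The heterozygous point lies near the homozygous one for *Ncs1*, *Calm2* and *Rps12*, near the wild-type one for *Rpl29*, and outside both for *Gm8797* and *Usp22*.

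Genes of the cytosolic ribosome were lower as a group in homozygous cells. All 83 listed ribosomal protein genes passed the expression filter, and 50 of them (60.2%, against 6.32% of all genes) were lower and 0 higher. Their median log2 ratio was −0.42 against 0.08 for all genes. Together they made up 22.0% of the wild-type UMIs and 17.1% of the homozygous UMIs, and 16.1% of the heterozygous UMIs. Without *Rpl29* the first 2 shares were 21.9% and 17.1%. The ratio varied widely among members of the same complex. *Rps12* was at 1834 CPM in wild-type and 901 CPM in homozygous cells (log2 −1.03, −1.08 to −0.97), *Rpl39* at 5567 and 3211 CPM (log2 −0.79) and *Rpsa*, which also serves as a laminin receptor, at 3318 and 1925 CPM (log2 −0.79). At the other end, the most abundant member, *Rpl41*, was at 16344 and 15907 CPM (log2 −0.04), *Rps29* had −0.08, and 6 members had ratios above 0, up to 0.16 for *Rpl22l1*. The median over members was −0.42 in empty droplets and −0.41 in the filtered cells outside the neuronal group. It was −0.49 in cells of 2000 to under 4000 UMIs, where 56 members were lower.

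**Figure D3:**
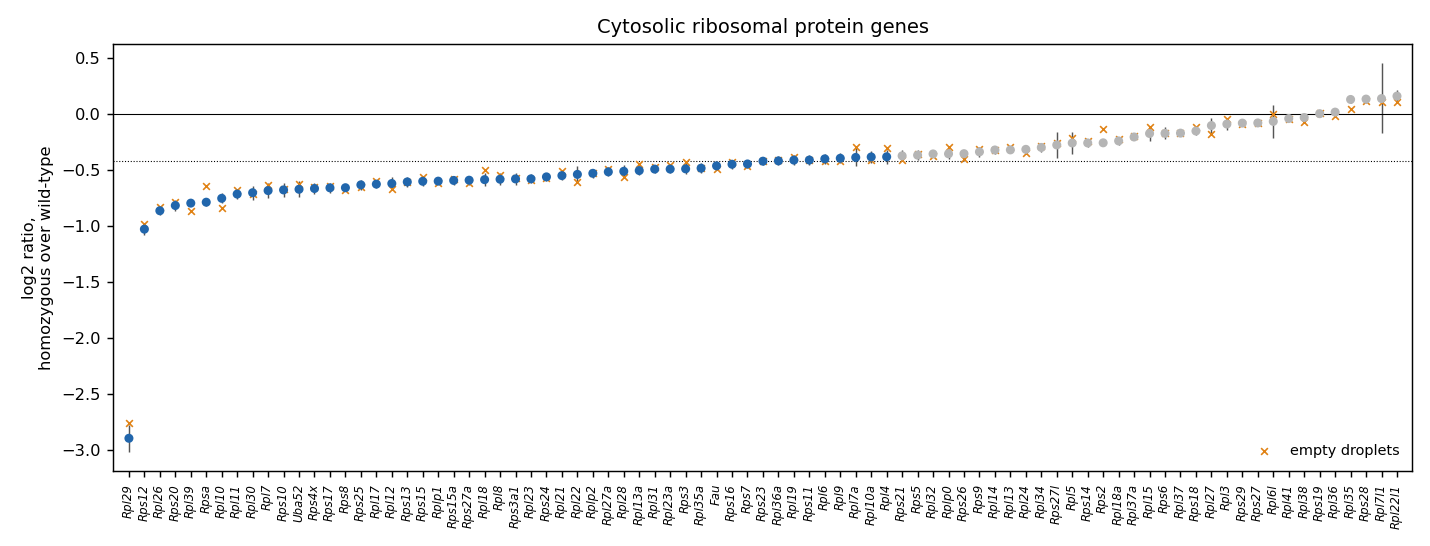
Log2 ratio of homozygous over wild-type typical neuronal cells for the 83 cytosolic ribosomal protein genes in order of the ratio, with 95% counting intervals as bars, lower calls in blue and the empty droplets of the same libraries as crosses. The 50 lower calls run from *Rpl29* at −2.89 to −0.38, and the crosses follow the points along the whole series.

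The factors that act with the ribosome had calls in both directions. Of 48 translation factors, 5 were higher and 6 lower (10.4% and 12.5%, against 11.2% and 6.32% of all genes), with ranges over settings of 3 to 5 and 6 to 8 and a median of −0.02. The elongation factor gene *Eef1a1* was at 2079 CPM in wild-type and 1445 CPM in homozygous cells (log2 −0.52). The genes of its exchange factor, *Eef1b2* and *Eef1d*, had log2 ratios of −0.54 and −0.59, while the initiation helicase gene *Eif4a2* was at 174 and 267 CPM (log2 0.62). *Eef1a2*, the elongation factor isoform of mature neurons, had 0.29 and was not called. Of 68 mitochondrial ribosomal protein genes, 4 were higher and 3 lower (5.88% and 4.41%, ranges 2 to 6 and 1 to 3), with *Mrpl50* highest (log2 0.55). *Mrpl55* was lowest (log2 −0.52), at 106, 107 and 74.1 CPM in wild-type, heterozygous and homozygous cells.

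Mitochondrially encoded transcripts took 10.7% of the UMIs in wild-type and 12.8% in homozygous cells, and 15.7% in heterozygous cells. The 13 genes moved unequally. *mt-Atp6*, a subunit of ATP synthase, was at 18163 CPM in wild-type and 28765 CPM in homozygous cells (log2 0.66), and *mt-Atp8*, whose reading frame overlaps that of *mt-Atp6*, was at 493 and 235 CPM (log2 −1.07). *mt-Co3* was at 27799 and 27284 CPM (log2 −0.03). *mt-Nd1* and *mt-Nd4l* were also higher (log2 0.40 and 0.43) and *mt-Nd3* lower (log2 −0.38), and over settings 1 to 3 of the genes were higher and 1 to 2 lower. The nuclear genes of the respiratory chain had few calls. Complex I had 1 higher call, *Ndufa1* (log2 0.51), and 0 lower calls among 43 genes with a median of 0.14. Complexes II and III had 0 calls among 19 genes (0 to 4 higher over settings, median 0.14) and the nuclear subunits of ATP synthase 1 lower call, *Atp5g2* (log2 −0.42), among 17. In complex IV, *Cox6a2*, the muscle-type subunit also found in interneurons, was at 13.9 CPM in wild-type and 39.0 CPM in homozygous cells (log2 1.49), while the median of the 12 genes was −0.05.

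Metabolic genes beyond the chain were counted by pathway. In the citric acid cycle, 4 of 19 genes were higher (21.1%, against 11.2% of all genes) and 1 was lower, with ranges over settings of 2 to 5 and 0 to 3. *Idh3a*, the catalytic subunit of isocitrate dehydrogenase, was at 84.2 and 119 CPM (log2 0.49) and *Idh3g*, a regulatory subunit of the same enzyme, at 92.9 and 70.6 CPM (log2 −0.40). In glycolysis *Gapdh* was lower, at 1104 CPM in wild-type and 791 CPM in homozygous cells (log2 −0.48), and the other 13 genes were not called, with *Aldoc* at 0.10. Mitochondrial import and carrier genes had 5 higher and 1 lower call among 39 (12.8% and 2.56%, against 11.2% and 6.32% of all genes, ranges 3 to 6 and 0 to 2). Cholesterol synthesis had 2 higher calls among 15 genes (13.3%, range 2 to 3) with a median of 0.20, *Tm7sf2* (log2 0.79) and *Msmo1* (log2 0.59). Antioxidant enzymes had 2 higher calls among 29 (6.90%, range 0 to 2, with 0 to 2 lower), of which *Mgst3*, a microsomal glutathione transferase, was at 742 and 974 CPM (log2 0.39).

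With all typical cells and the full library total, calcium sensors were the list of more than 10 genes with the largest share of higher calls. The ranking depended on the setting. In cells of 1500 to under 2000 UMIs, 6 of the 12 upper-layer genes and 9 of the 25 calcium sensors were higher. With the total without mitochondrial and ribosomal genes, 5 of the 16 V-ATPase genes and 7 of the calcium sensors were. Of 25 calmodulins and calcium sensors, 9 (36.0%, against 11.2% of all genes) were higher (range over settings 7 to 11) and 1 was lower, with a median of 0.29, and the sum over all 32 genes listed was 14200 CPM in wild-type and 17986 CPM in homozygous cells. Besides *Ncs1*, *Calm2* and *Nrgn*, the neuronal calcium sensor genes *Hpca*, *Vsnl1* and *Ncald* had log2 ratios of 0.48, 0.47 and 0.42, and the kinase genes *Camk1*, *Camkv* and *Camkk2* 0.45, 0.45 and 0.43. *Calm3*, another gene for the same protein, had 0.29 and was not called. *Pcp4*, which encodes a calmodulin-binding peptide of deep-layer neurons, was lower, at 994 CPM in wild-type and 750 CPM in homozygous cells (log2 −0.41). The list's median was 0.36 in empty droplets.

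Ubiquitin conjugation and vacuolar acidification were read against the 11.2% of all genes that were higher and the 6.32% that were lower. Of 38 genes of ubiquitin and its conjugation, 8 (21.1%, range 7 to 11) were higher and 1, *Ube2r2* (log2 −0.63), was lower. The most abundant of them, *Ubb*, was at 3256, 3679 and 2814 CPM in wild-type, heterozygous and homozygous cells (log2 −0.21). The proteasome, to which ubiquitin directs proteins, had 2 higher and 0 lower calls among 42 genes (4.76% higher, ranges 0 to 6 and 0 to 1, median 0.09). Of 16 genes of the V-ATPase, the proton pump of lysosomes and synaptic vesicles, 5 (31.3%, range 4 to 6) were higher and 0 lower (range 0 to 1), led by *Atp6ap2* (21.0 and 35.1 CPM, log2 0.74) and *Atp6v1g1* (312 and 468 CPM, log2 0.58). The V-ATPase median was 0.21, and 0.03 in cells of 1500 to under 2000 UMIs. Lysosome and autophagy genes had 1 call among 15, the protease gene *Ctsl* (log2 −0.71). Chaperones had 2 higher and 2 lower calls among 46 (4.35% each, ranges 1 to 4 and 2 to 3). Both *Hsp90ab1* (1099 and 747 CPM, log2 −0.56) and *Hsp90aa1* (log2 −0.48), the cytosolic HSP90 genes, were lower, and the co-chaperone gene *Dnajb6* was higher (log2 0.56).

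Membrane traffic genes had a share of higher calls near that of all genes. Of 52 Rab, Arf and Arl genes, small GTPases that direct vesicles together with a few of their partners, 8 (15.4%, against 11.2% of all genes) were higher and 0 lower, with a median of 0.17. *Arf5* was at 620 CPM in wild-type and 814 CPM in homozygous cells (log2 0.39), and *Rab28* at 13.9 and 27.2 CPM (log2 0.97). Over settings 4 to 12 were higher and 0 to 1 lower, the 4 with the total taken without mitochondrial and ribosomal genes. Of 6 genes for 14-3-3 proteins, adaptors that bind phosphorylated partners, *Ywhah* (370 and 551 CPM, log2 0.58) and *Ywhaq* (log2 0.45) were higher, and *Ywhae*, the most abundant, had 0.32 (1 to 3 higher over settings). Clathrin and its adaptors had 2 higher calls and 1 lower call among 22 genes (ranges 1 to 3 and 0 to 3), *Ap3s1* at 0.47 and the amphiphysin gene *Amph* at −0.51, but at 0.064 in cells of 1500 to under 2000 UMIs. Genes for entry into the endoplasmic reticulum had 1 higher and 2 lower calls among 25 (ranges 0 to 1 and 1 to 3), *Ssr1* (log2 0.42), *Calr* (log2 −0.40) and *Ssr3* (log2 −0.40).

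Cytoskeleton genes were counted by structure. Among 33 genes for kinesins, dynein and dynactin, 5 (15.2%, against 11.2% of all genes) were higher and 3 (9.09%, against 6.32%) lower, with ranges over settings of 2 to 6 and 1 to 4. *Kif1a*, the motor that carries synaptic vesicle precursors along axons, was at 773, 491 and 504 CPM in wild-type, heterozygous and homozygous cells (log2 −0.62, −0.69 to −0.54). The kinesin genes *Kif21a* and *Kif3a* were lower as well (both log2 −0.48). The higher calls were 4 genes of dynein or dynactin, among them *Dynlt1c* (log2 0.75), and *Kif1bp*, a kinesin binding protein gene (log2 0.55). Of 26 microtubule-associated protein and stathmin genes, 0 were higher and 2 (7.69%, against 6.32% of all genes) lower, *Mapt*, the tau gene (690 and 503 CPM, log2 −0.46), and *Map1a* (128 and 98.3 CPM, log2 −0.38). This list had 3 higher and 2 lower calls in cells of 2000 to under 4000 UMIs and 1 of each in cells matched on depth, with ranges over settings of 0 to 3 and 1 to 4. *Stmn2*, a growth cone stathmin, was at 3591 and 2780 CPM (log2 −0.37), just under the 1.3-fold limit. Tubulins had 1 higher call among 11 genes (0 to 1 higher and 0 to 1 lower over settings), *Tubb4a* (log2 0.40), with *Tuba1a* at 0.15. Among 47 genes of actin and its regulators, 4 were higher (8.51%, against 11.2% of all genes) and 0 lower, with ranges over settings of 3 to 9 and 0 to 2. These were *Capza2*, *Abi1* (log2 0.57), *Pfn1* (log2 0.46) and *Arpc5* (log2 0.40). Ankyrins and spectrins had 0 calls among 5 genes, with *Ank2* at −0.06. Of the collapsin response mediator genes, *Dpysl5* was lower (log2 −0.38, 0 to 1 lower over settings) and *Dpysl2* was at 0.19.

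On the presynaptic side, 7 of 45 vesicle release genes (15.6%, against 11.2% of all genes) were higher and 4 (8.89%, against 6.32%) lower. The balance turned to 4 higher and 7 lower once the empty-droplet profile was subtracted, 4 and 6 with the total without mitochondrial and ribosomal genes, and 2 and 4 with cells thinned to 1000 UMIs. It was 8 and 2 in cells matched on depth, 6 and 1 in cells of 1500 to under 2000 UMIs and 9 and 3 in cells of 2000 to under 4000 UMIs. The higher calls included abundant genes of the fusion machinery. *Vamp2* was at 551, 804 and 732 CPM in wild-type, heterozygous and homozygous cells (log2 0.41), and *Snap25*, *Napa* and *Nsf* had 0.49, 0.47 and 0.45. The highest was the synaptotagmin gene *Syt5* (log2 0.61). The lower calls were other synaptotagmins, *Syt13* (26.2 and 16.1 CPM, log2 −0.70) and *Syt7* (log2 −0.57), with *Ppfia2* (log2 −0.52), an active zone liprin gene, and *Sv2a* (log2 −0.42). The vesicular glutamate transporter gene *Slc17a7* was at 38.4 and 38.5 CPM (log2 0.00). The median of the list was 0.06 over all members and 0.35 over those of at least 100 CPM. The vesicle release list takes in *Stx12*, an endosomal syntaxin, by its symbol.

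On the postsynaptic side, 3 of 23 scaffold genes (13.04%, against 11.2% of all genes) were higher and 0 lower, with ranges over settings of 3 to 5 and 0 to 2. These were *Agap2* (15.3 and 39.0 CPM, log2 1.35, and 2.002 in cells of 1500 to under 2000 UMIs), *Nrgn*, which was used to pick the cells, and *Nsmf* (log2 0.46), and *Cnih2*, an AMPA receptor auxiliary gene, was at 859 and 1097 CPM (log2 0.35). Glutamate receptor genes had 0 calls among 4 that passed the filter, with *Grin2b* at 54.2 and 45.3 CPM (log2 −0.26) and *Gria2* at 41.1 and 47.6 CPM (log2 0.21). Of 5 genes for GABA-A receptors and their partners, 3 were higher (60.0%, against 11.2% of all genes), but 1 in cells matched on depth and 1 in either depth class, among them *Gabra2* (15.8 and 26.3 CPM, log2 0.74) and the scaffold gene *Gphn* (log2 0.60). *Gabra2* passed the filter only through the homozygous library. The most abundant of these 5, *Gabarap*, was at 566 and 493 CPM (log2 −0.20). The sum over all 17 genes listed was 743 CPM in wild-type and 716 CPM in homozygous cells (log2 −0.05). Synaptic adhesion genes had 1 call among 16 (0 to 4 higher and 0 to 1 lower over settings), *Lrrc41* (log2 0.58), a leucine-rich repeat gene that entered by its symbol and is not known as an adhesion gene. Among adhesion genes proper, *Ncam1* was at 186 and 185 CPM (log2 −0.01) and *Nrxn2* at −0.25. Cadherins had 1 higher call among 6 (1 to 2 higher and 0 to 1 lower over settings), *Pcdh11x* (log2 0.53, and 1.19 in cells of 1500 to under 2000 UMIs), and axon guidance genes 1 in each direction among 4 (0 to 1 of each), *Efna3* (log2 0.67, but −0.50 in cells of 2000 to under 4000 UMIs) and *Epha5* (log2 −0.40).

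Calls among channels, transporters and signalling genes were counted list by list. Among 10 channel genes, 1 was higher and 0 lower (0 to 1 of each over settings), and *Kcnk2*, a leak potassium channel, was at −0.20. Of 36 ion pump and solute carrier genes, 5 were higher and 3 lower (13.9% and 8.33%, against 11.2% and 6.32% of all genes, ranges 3 to 8 and 3 to 5), with *Slc6a15*, a neutral amino acid transporter, at 31.3 and 55.1 CPM (log2 0.82). G protein and RGS genes had 1 higher and 2 lower calls among 29 (3.45% and 6.90%, ranges 1 to 4 and 2 to 4), *Gnai1* (log2 0.45), *Rgs17* (log2 −0.69) and *Gnb2l1* (log2 −0.59), the last of which encodes the ribosomal scaffold RACK1. In the Wnt and beta-catenin pathway, a route of secreted signals that also acts in synapse formation, 0 of 16 genes were higher and 2 lower (12.5%, against 6.32% of all genes). The counts were 1 higher and 1 lower in cells matched on depth, 2 and 1 in cells of 1500 to under 2000 UMIs and 1 and 1 in cells of 2000 to under 4000 UMIs. The ligand gene *Wnt7b* was at 26.2, 28.4 and 18.1 CPM in wild-type, heterozygous and homozygous cells, from 96, 296 and 110 UMIs (log2 −0.53, −0.94 to −0.12). Its ratio in empty droplets was −0.02. *Apc2* was also lower (log2 −0.49). The transducer gene *Ctnnb1*, for beta-catenin, was at 204 and 170 CPM (log2 −0.26), and the kinase gene *Gsk3b* was at 204 and 264 CPM (log2 0.37, 0.25 to 0.50), both short of the 1.3-fold limit. In cells of 2000 to under 4000 UMIs *Gsk3b* was past it, with 0.55 (0.36 to 0.74), and *Ctnnb1* had −0.22.

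Genes of the upper and the deep cortical layers were counted apart. Of 12 upper-layer genes, 4 (33.3%, against 11.2% of all genes) were higher and 0 lower, with a median of 0.21, and 1 of the 4, *Rorb*, was used to pick the cells. The ranges over settings were 3 to 6 higher and 0 to 1 lower. *Cux2*, a homeobox gene of layers II to IV, was at 27.5, 48.5 and 49.6 CPM in wild-type, heterozygous and homozygous cells (log2 0.85, 0.52 to 1.19). *Rorb*, a nuclear receptor gene of layer IV, was at 86.1, 98.8 and 121 CPM (log2 0.49), and *Pou3f1* and *Dok5* had 0.76 and 0.43. *Lmo4*, a LIM-only gene, had −0.32 and was not called. Of 11 deep-layer genes, 0 were higher and 1, *Pcp4*, was lower (9.09%, against 6.32% of all genes), with ranges over settings of 0 to 1 and 0 to 3 and a median of −0.04. *Fezf2*, the determinant of subcerebral neurons, was at 43.0 and 52.0 CPM (log2 0.27), *Bcl11b* had 0.07, *Foxp1* −0.04 and *Crym* −0.34. Among 24 other neuronal transcription factors, 2 were higher and 5 (20.8%, against 6.32% of all genes) lower. The counts were 4 higher and 2 lower in cells matched on depth, 2 and 2 with cells thinned to 1000 UMIs, and 5 and 3 in cells of 2000 to under 4000 UMIs. *Meis2* was at 89.6 CPM in wild-type and 59.8 CPM in homozygous cells (log2 −0.58), *Zbtb20* had −0.51, *Myt1l* −0.46 and *Nfib* −0.39. *Lmo3*, a LIM-only cofactor gene, was at 48.2 and 80.0 CPM (log2 0.73) and *Id2* had 0.47. *Neurod6* and *Mef2c*, transcription factors of postmitotic excitatory neurons, had 0.26 and 0.24, and *Sox4*, a gene of newborn neurons, −0.23.

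Since *Tbr1* encodes a DNA-binding protein, promoters were searched for the T-box site AGGTGTGA and its reverse complement TCACACCT. RefSeq promoters of GRCm38.p6, which run 250 bases before to 50 after a listed start, gave 4310 windows that matched 3280 of the 4269 genes by symbol, some genes with more than 1 start, and 22 of these (0.671%) held it. Of the higher genes 2 of 344 (0.581%) held it, *Lmo3* and *Shisa5* (log2 0.49), and of the lower genes 2 of 190 (1.05%), *Meg3* and *Bscl2* (log2 −0.38). Over all RefSeq genes the share was 1.48%. These windows and exact letters only were read, and a match is no evidence of binding. The promoters of 2 called genes with a match, on opposite sides of the comparison, are printed below with the site in capitals. These are *Lmo3* at chr6:138581919-138582218 on the minus strand and *Meg3* at chr12:109545148-109545447 on the plus strand, each 5′ to 3′ along its gene. The *Meg3* window is at an alternative start inside the gene, and its window at the gene's own start held no match.
*Lmo3*: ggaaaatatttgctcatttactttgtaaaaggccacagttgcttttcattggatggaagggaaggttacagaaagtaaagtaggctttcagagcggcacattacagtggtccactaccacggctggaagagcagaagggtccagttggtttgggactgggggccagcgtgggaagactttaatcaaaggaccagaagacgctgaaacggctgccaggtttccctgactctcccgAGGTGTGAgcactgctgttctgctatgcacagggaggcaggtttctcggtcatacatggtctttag
*Meg3*: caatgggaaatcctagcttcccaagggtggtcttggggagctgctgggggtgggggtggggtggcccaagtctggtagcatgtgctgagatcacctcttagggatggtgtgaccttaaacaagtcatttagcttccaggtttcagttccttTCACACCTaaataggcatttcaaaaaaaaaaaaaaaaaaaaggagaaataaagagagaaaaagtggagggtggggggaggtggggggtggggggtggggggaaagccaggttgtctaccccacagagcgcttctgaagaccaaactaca

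Nuclear and RNA-processing genes included the lowest list median when all typical cells were used. Of 5 nuclear long noncoding RNAs, 4 were lower (80.0%, against 6.32% of all genes) and 0 higher, with a median of −0.54. The list also takes in host genes of small nucleolar RNAs, and 1 of these, *Snhg6*, had −0.12 and was not called. In either depth class 2 were lower, and 3 once the empty-droplet profile was subtracted. The median was −0.34 in cells of 1500 to under 2000 UMIs and −0.39 in cells of 2000 to under 4000. There the cytosolic ribosomal proteins lay lower, at −0.44 and −0.49. *Malat1*, which stays in nuclear speckles, was at 1130, 348 and 594 CPM in wild-type, heterozygous and homozygous cells (log2 −0.93). This is far below its level of 33113 and 26359 CPM in the filtered cells outside the neuronal group of the wild-type and homozygous libraries. It is also below the 3186 and 1908 CPM of *Malat1* in the empty droplets of these libraries. Its ratio was −1.87 with the atypical cells included and −0.56 in cells of 1500 to under 2000 UMIs. *Meg3*, a maternally expressed noncoding RNA, was at 49.6 and 28.0 CPM (log2 −0.83, −1.402 with the atypical cells included, −0.16 in cells of 1500 to under 2000 UMIs and −0.95 in cells of 2000 to under 4000). Splicing and RNA-binding genes had 7 higher and 7 lower calls among 88 (7.95% each, against 11.2% and 6.32% of all genes), 5 and 12 with the total without mitochondrial and ribosomal genes, and 14 and 5 in cells of 2000 to under 4000 UMIs, from *Snrnp40* (log2 0.56) to *Srrm2* (log2 −0.52). In the BAF complex and histone variants, 1 of 31 genes was higher and 2 lower (ranges over settings 0 to 3 and 2 to 4), *Hmgn3* at 0.42, *Smarca4*, the ATPase of the complex, at −0.59 and *Hmgn5* at −0.67. Of 9 imprinted genes, *Snrpn* (983 and 1396 CPM, log2 0.51) and *Blcap* (log2 0.75) were higher and *Meg3* lower (1 to 2 higher and 0 to 2 lower over settings). Immediate early genes had 0 calls among 4 that passed the filter, with *Jund* at 0.36.

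**Figure D4:**
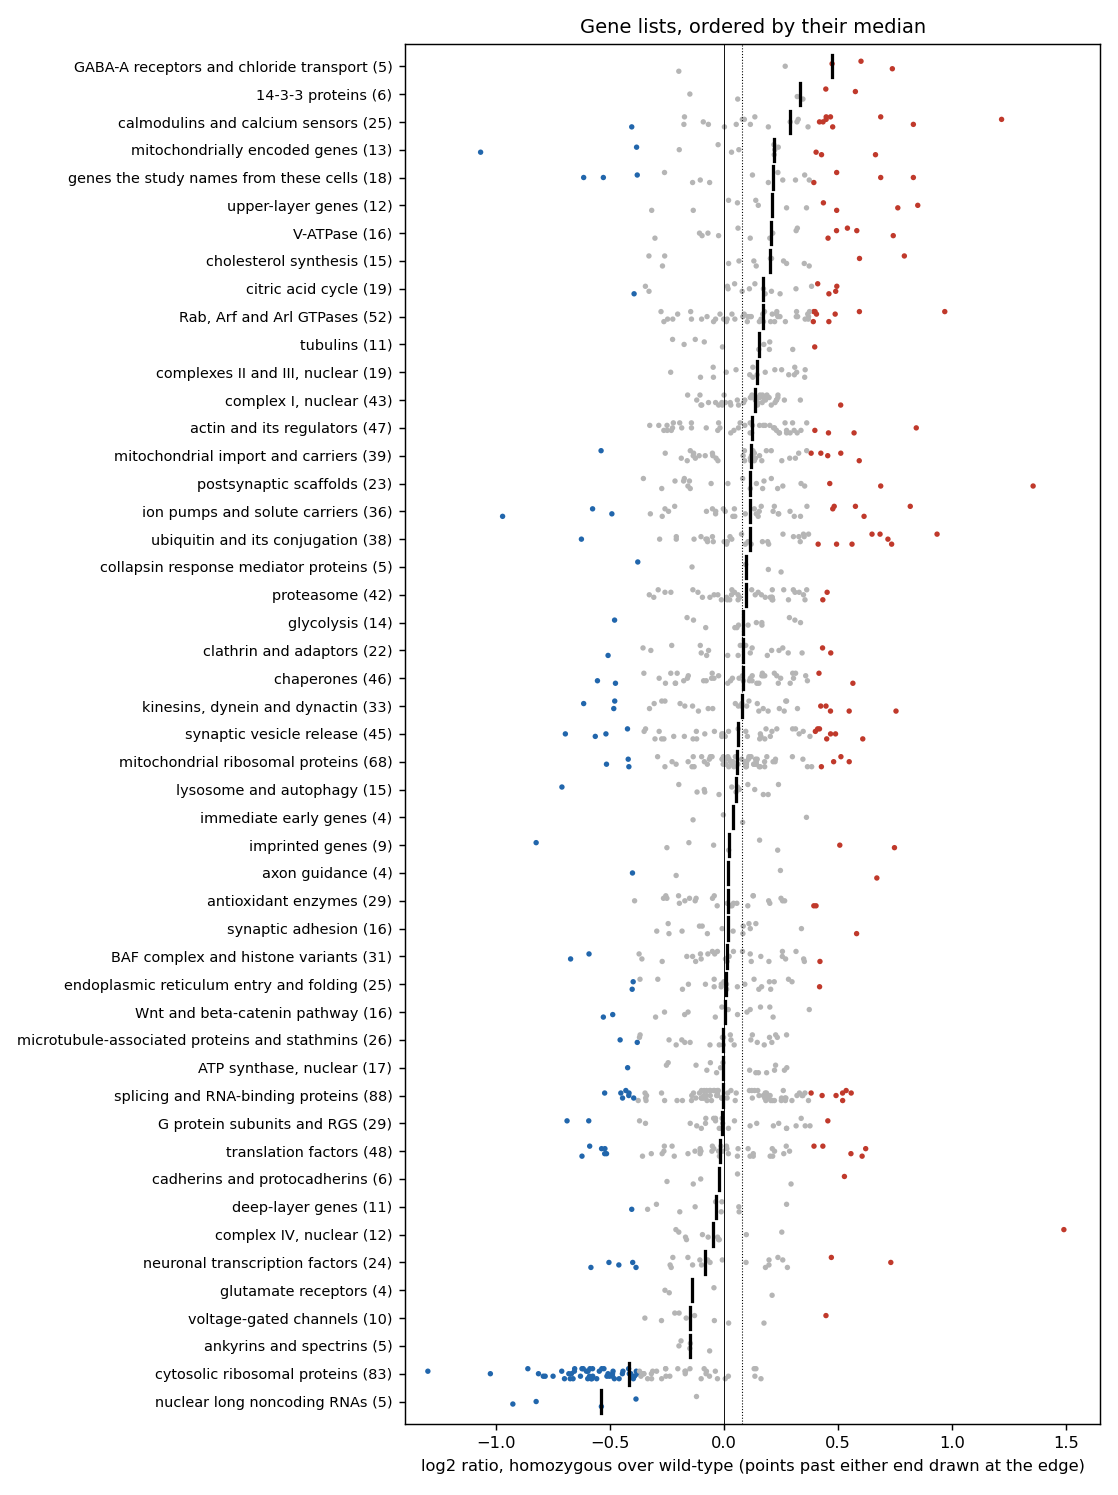
Log2 ratio of homozygous over wild-type typical neuronal cells for the members of 49 gene lists with a mean of at least 20 CPM (number in brackets), with the median of each list as a black bar, higher calls in red, lower calls in blue and the median of all genes as the dotted line. Nuclear long noncoding RNAs and cytosolic ribosomal proteins lie lowest with medians of −0.54 and −0.42, and GABA-A receptors, 14-3-3 proteins and calcium sensors highest with 0.47, 0.33 and 0.29.

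The lists together cover 1198 of the 4269 genes and hold 114 of the 476 higher and 109 of the 270 lower calls. The 18 genes that the study names from these cells held 4 higher and 3 lower calls (22.2% and 16.7%, against 11.2% and 6.32% of all genes), with a median of 0.21. In cells matched on depth and in cells of 2000 to under 4000 UMIs they held 7 higher and 1 lower. The study chose them on these libraries, so their count is not independent evidence of a direction. The higher were *Calm2*, *Nrgn*, *Rorb* and *Mgst3*, the lower *Kif1a*, *Wnt7b* and *Map1a*. Of the rest, *Syt4*, *Cnih2* and *Gsk3b* lay between 0.31 and 0.37, *Rac3*, *Dpysl2*, *Mef2c* and *Neurod6* between 0.12 and 0.26, and *Ctnnb1*, *Smarcc2*, *Ap2s1* and *Ank2* between −0.26 and −0.06.

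The same ratios were read in empty droplets and in the filtered cells outside the neuronal group. The latter are not free of neuronal RNA, with *Nrgn* at 454 CPM in wild-type and 1068 CPM in homozygous. In empty droplets 14.1% of all genes were higher and 5.22% lower by the same rule. Of the 476 genes higher in typical cells, 290 (60.9%) were higher there, and of the 270 lower, 159 (58.9%) were lower. In the filtered cells outside the neuronal group, 193 (40.5%) of the higher genes and 158 (58.5%) of the lower genes had the same call, against 14.2% and 11.2% of all genes. *Calm2* had log2 ratios of 0.83 in typical cells, 0.82 in empty droplets and 1.04 in the other filtered cells, *Ncs1* 1.22, 1.32 and 1.47, and *Kif1a* −0.62, −0.71 and −0.42. The point values of typical cells and droplets lay apart for *Cux2* (0.85 and 0.38), *Pcp4* (−0.41 and −0.05), *Wnt7b* (−0.53 and −0.02), *Syt13* (−0.70 and −0.06) and *Amph* (−0.51 and 0.36).

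**Figure D5:**
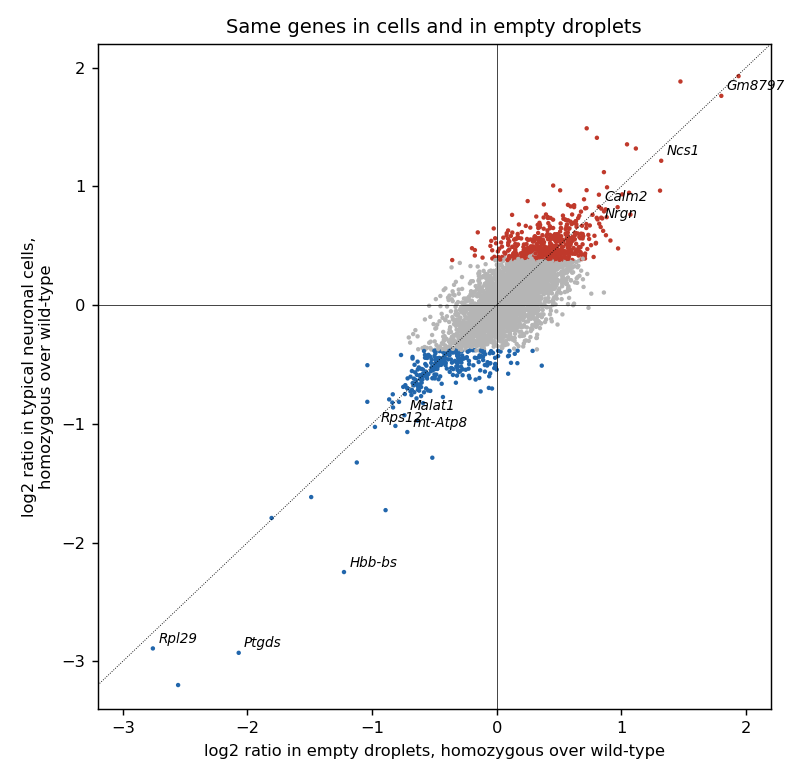
Log2 ratio of homozygous over wild-type for the 4269 genes in empty droplets (horizontal axis) and in typical neuronal cells (vertical axis), with higher calls in red, lower calls in blue and equal ratios on the dotted line. *Calm2* and *Ncs1* lie near the line, and 290 of the 476 higher and 159 of the 270 lower genes have the same call on both axes.

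Cells of like depth gave similar counts of calls. In cells of 1500 to under 2000 UMIs, 1031 of wild-type and 974 of homozygous, 454 genes were higher and 251 lower, of which 283 and 168 were the calls made from all cells. In cells of 2000 to under 4000 UMIs, 747 and 618, the counts were 520 and 230, with 303 and 152 shared. *Kif1a* had log2 ratios of −0.66 and −0.75 in the 2 depth classes, *Calm2* 0.89 and 0.92, *Nrgn* 0.82 and 0.88, and *Rorb* 0.54 and 0.91. *Wnt7b* had −0.43 and −0.39. It was not called in the deeper class, where *Kif1a* was the only lower call among the genes the study names. *Tbr1* had 0.13 and −1.24, and these values rest on a part of the few *Tbr1* UMIs given above for all typical cells.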

How the data were processed

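FACS-sorted tdTomato-positive cells were profiled by droplet sequencing (10X Chromium, 3′ v2 chemistry). Cell Ranger 2.0.1, run by the authors against mm10, gave the UMIs. The deposited matrices hold raw counts for every barcode. The filtered table holds raw counts of 17396 cells. Mitochondrial and ribosomal shares per cell were deposited under headers that say percent, and their values were read as fractions. Cells were assigned to genotype and to typical neuronal cells by the deposited metadata. The authors tested cells with MAST, which was not repeated, because cells of 1 library are not replicates.

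Raw UMIs of typical cells were summed per library with Python 3.11.15. Ratios carry exact Clopper-Pearson intervals from SciPy 1.17.1. Ratios, intervals and calls were tested on simulated data that held set fold changes and counting error only. That check cannot bear on variation between libraries. The members, the 49 gene lists and the rules were chosen with earlier results of these data known. Lists were set by symbol or symbol pattern, and a few take in neighbours by name. The named genes are the 15 highest and 15 lowest ratios among calls of at least 100 CPM, the 2 most abundant members and the highest and lowest call of each list, *Tbr1*, *Xist* and the genes the study names. Further members are named where a list's calls are listed or examples are given, after their values were seen. A few genes that the rule takes in are not reported here. No doublet caller was run. The values above keep all typical cells, and the deepest 5% of cells were left out only in an alternative setting. Alternatives included edgeR 4.0.16 TMM and DESeq2 1.42.0 size factors, thinning to 1000 UMIs, matching in bins of 100 UMIs and subtraction of the empty-droplet profile (23.4% of UMIs in wild-type, 17.1% in homozygous). This share was the smallest that any glial, microglial, vascular or meningeal marker list allowed, the mural one in both. It is not a measured ambient share, since astrocyte and radial glia markers allowed 101% in wild-type and 95.1% in homozygous. Cells of 1500 to under 2000 and of 2000 to under 4000 UMIs were added after seeing the data. Promoters are from RefSeq. The log-normalized and scaled tables of the authors were not used.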

Additional observations from a re-analysis of the deposited data

How the results depend on the processing

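With 1 library per genotype no library could be left out. No paired analysis was possible because each genotype has 1 library and no test between genotypes was run. The counts of 476 higher and 270 lower genes moved with the filter and the fold limit, to 227 and 132 at a mean of at least 50 CPM, 107 and 89 at 100 CPM, 869 and 732 without the CPM filter (12318 genes of at least 10 UMIs), 124 and 84 at 1.5-fold, and 10 and 12 at 2-fold. Under the other settings they stayed within 1.5 times, from 334 to 533 higher and from 230 to 361 lower, and the median log2 ratio of all genes stayed between 0.02 and 0.09. Subtraction of the empty-droplet profile gave 483 and 312. Of the called genes named here, *Amph* turned to 0.064 in cells of 1500 to under 2000 UMIs, and *Efna3* to −0.50 and *Gpx3* to −0.031 in cells of 2000 to under 4000 UMIs; the cause was not tested. Their intervals there include 0. Of 180 named genes, 40 moved outside their counting intervals with the total without mitochondrial and ribosomal genes, 31 with cells matched on depth, 45 and 56 in the shallower and the deeper depth class beside the reversals, 13 with the atypical cells, 11 after the subtraction, 3 with DESeq2 size factors and 0 with TMM factors. The median of cytosolic ribosomal proteins ranged from −0.49 to −0.41 over the settings and that of calcium sensors from 0.23 to 0.32. Medians of short lists moved more, as for GABA-A receptors, from −0.20 to 0.64. Depth limits genes near 20 CPM, where *Wnt7b* has 96 and 110 UMIs.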

Other observations

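Calls were spread over the chromosomes. On the 20 chromosomes with at least 100 of the genes of 20 CPM or more, the share of higher genes ran from 2.53% on chromosome 19 to 17.1% on chromosome X, and the share of lower genes from 3.05% on chromosome 6 to 11.8% on chromosome 16. Of 16 other genes that start within 10 Mb of *Tbr1* on chromosome 2, 0 were higher and 2 (12.5%, against 6.32% of all genes) lower, among them *Ssb*, which encodes an RNA-binding protein (131 CPM in wild-type and 92.5 CPM in homozygous cells, log2 −0.50), named after its value was seen.

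Below 100 CPM, where the rule for leading genes did not reach, *Mal2* was at 10.1 CPM in wild-type and 37.2 CPM in homozygous cells (log2 1.88). *Hba-a2*, an alpha globin gene, was lowest at 46.3 and 4.12 CPM (log2 −3.49), and the endothelial genes *Igfbp7* and *Cldn5* had −1.73 and −1.33, while *Plvap*, another endothelial gene, was at 17.2 and 33.6 CPM (log2 0.97). These genes were chosen after their values were seen. The 57 genes with a symbol of the form Gm and a number or the ending of a pseudogene held 15 higher (26.3%, against 11.2% of all genes) and 9 lower calls (15.8%, against 6.32%).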
